A study of Homo sapiens with 18 samples.

Results

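The transcripts of 9 receptors and adhesion molecules that steer B cells into, within and out of lymphoid tissue were followed across mantle cell lymphoma cells treated with drugs for 6 h. The genes were listed by name: the chemokine receptors CXCR4, CXCR5 and CCR7, the sphingosine-1-phosphate receptors S1PR1, S1PR2 and S1PR4, the oxysterol receptor GPR183, and the integrin chains ITGA4 and ITGB7. All 9 were found among the 25369 genes listed for each cell line, and all 9 passed the filter on low values (a mean of at least 10 normalized counts) in both lines. The study comprised 18 RNA-seq libraries of the human lines JEKO1 and MAVER in 6 groups of 3. JEKO1 was given IB or DMSO, and MAVER was given IB, KPT, PU or DMSO, the solvent control. The series description names ibrutinib at 0.4 µM, which blocks the kinase BTK downstream of the B cell receptor, and selinexor at 1.5 µM, which blocks XPO1, an exporter of nuclear proteins. IB and KPT were taken to be these compounds. What PU stands for is not stated in the labels, and the name is kept. Replicates are called biological in the labels, without saying how cultures were kept apart, and p-values therefore rest on the spread among these libraries. Cell line RNA was measured in bulk, in which fewer cells that carry a transcript and less of it per cell cannot be told apart.

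B cells find their way by G protein-coupled receptors that read gradients of small ligands. CXCR4 answers to CXCL12 made by stroma of the bone marrow and the lymph node, CXCR5 to CXCL13 of the follicle, and CCR7 to CCL19 and CCL21 of the T cell zone. GPR183, also called EBI2, draws B cells to the outer follicle along oxysterol gradients. S1PR1 guides lymphocytes out toward the high sphingosine-1-phosphate of lymph and blood, whereas S1PR2 couples to Gα13 and confines germinal centre B cells. ITGA4 pairs with ITGB1 or ITGB7 to bind VCAM1, fibronectin or MAdCAM-1 and so arrests cells on vessel walls. In patients, ibrutinib moves malignant B cells from the nodes into the blood, an effect known to involve integrin adhesion and chemokine signalling.

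The libraries held 5374226 to 17040599 recovered reads, the shallowest being a KPT library and the deepest a PU library. All 7 B cell markers examined and the mantle cell lymphoma marker CCND1 were present in both lines, whereas the 5 T cell and 5 myeloid markers found in the tables stayed under a mean of 10 normalized counts. Of the other mantle cell lymphoma markers, SOX11 stood at 1218 to 1507 in JEKO1 and at 605 to 1090 in MAVER. CD5 was lower, at 20 to 82.6 in JEKO1 and at 147 to 423 in MAVER. Among 5 epithelial and fibroblast markers, 3 passed the filter in MAVER and all 3 rose with PU: COL1A1 stood at 652 to 733 normalized counts with PU and at 58.6 to 62.9 with DMSO, and EPCAM at 263 to 299 and 161 to 189 in the same order. The summed level of the 5 was 217 to 254 with IB, 267 to 301 with KPT and 972 to 1035 with PU, against 246 to 274 with DMSO, and COL1A2, the partner chain of COL1A1, stayed at 0 to 2.38 in MAVER. The part of these genes in the PU results was not tested. RNA45S5, the ribosomal RNA precursor, stood at 53819 and 66933 normalized counts in KPT replicates A and C and at 65331 in JEKO1 DMSO replicate C, against 7919 to 32274 in the other libraries; its part in the results was not tested, and values without these libraries are given where a call changed. The JEKO1 libraries may go against their labels. EGR1, an early response gene of B cell receptor signalling, averaged 211 ± 15.8 normalized counts (SD, n = 3) in JEKO1 libraries labelled IB and 17.7 ± 3.12 in those labelled DMSO, whereas in MAVER it averaged 0.321 ± 0.556 with IB and 33.2 ± 9.09 with DMSO. Of 1415 genes called for IB in both lines, 1260 (89%) moved in opposite directions. An exchange of the JEKO1 labels cannot be told apart from an opposite response, so every JEKO1 direction below holds for the labels as given.

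The stretches before the transcription starts of 4 members are shown because CXCR4, S1PR4 and GPR183 were higher with each of the 3 drugs in MAVER while S1PR1 was higher with KPT alone. CCR7 was higher with each drug as well, but no window was listed for it. S1PR2 was also called higher with KPT alone, a call lost under 6 alternatives, and its window is not shown. The 4 stretches are printed below. Each is the 250 bases upstream of a RefSeq start on GRCh38.p14, read 5′ to 3′ on the strand of the gene; the authors' own build was hg19. Capitals mark matches to the short motifs searched.
CXCR4, chr2:136118150-136118399, minus strand, the farthest upstream of the windows listed for this gene: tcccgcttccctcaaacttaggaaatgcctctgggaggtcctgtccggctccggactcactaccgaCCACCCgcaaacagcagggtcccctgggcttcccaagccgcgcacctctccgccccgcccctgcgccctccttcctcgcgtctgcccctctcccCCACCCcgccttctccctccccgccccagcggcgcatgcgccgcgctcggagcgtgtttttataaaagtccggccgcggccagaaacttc
S1PR4, chr19:3178519-3178768, plus strand: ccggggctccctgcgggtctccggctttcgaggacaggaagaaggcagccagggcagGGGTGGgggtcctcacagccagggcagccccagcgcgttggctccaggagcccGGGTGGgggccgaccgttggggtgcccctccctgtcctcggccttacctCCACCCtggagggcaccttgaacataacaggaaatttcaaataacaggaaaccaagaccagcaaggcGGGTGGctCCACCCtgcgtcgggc
GPR183, chr13:99307400-99307649, minus strand: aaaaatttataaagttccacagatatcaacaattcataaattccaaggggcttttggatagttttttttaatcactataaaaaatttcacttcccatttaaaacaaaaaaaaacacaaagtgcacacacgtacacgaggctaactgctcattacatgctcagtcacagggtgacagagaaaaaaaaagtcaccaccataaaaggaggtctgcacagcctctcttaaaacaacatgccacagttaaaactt
S1PR1, chr1:101236769-101237018, plus strand: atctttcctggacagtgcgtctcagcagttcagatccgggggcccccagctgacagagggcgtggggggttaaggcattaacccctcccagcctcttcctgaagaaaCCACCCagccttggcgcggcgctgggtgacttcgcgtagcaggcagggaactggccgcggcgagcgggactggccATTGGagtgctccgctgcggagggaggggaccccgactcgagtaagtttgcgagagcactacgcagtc

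The letters searched on both strands were CCACCC, bound by KLF factors, GTAAACA of FOXO factors, CACGTG, TGACGTCA, GCGGGGGCG, ATGCAAAT and CCAAT. Windows were listed for 8 of the 9 genes. The 8 genes had 10 windows. CCACCC was found in 9 of the 10 and in 31.3% of all 35116 windows of this length. Counted by gene, it was in at least 1 window of 7 of the 8 and of 35% of all 27305 genes. Those genes were not matched to the 8 for G and C content, expression or number of windows. GTAAACA was in 0 of the 10 and in 2.98% of all windows. CACGTG (6.34% of all) was in 0 of the 10 as well, and so was ATGCAAAT (1.63% of all). GCGGGGGCG was in 1, before CXCR4, and in 4.72% of all, and TGACGTCA in 1, before S1PR2, and in 1.65% of all. In the printed windows CCACCC stood at 2 places before CXCR4, 5 before S1PR4 and 1 before S1PR1, where it shared no base with the CCAAT match. CCAAT was found before CXCR4 and S1PR1, in the case of CXCR4 in another of its windows, and in 32% of all windows. The window of GPR183 held none of the 7 motifs and was the poorest in G and C, at 34.4%, against 68% for that of CXCR4. These matches describe the letters and are not evidence of binding.

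CXCR4, S1PR4, GPR183 and CCR7 rose with each of the 3 drugs in MAVER. The share of all tested genes higher with all 3 drugs was not computed, so whether this joint pattern is unusual is not known. The call was lost under 3 of the alternatives described below for CCR7 with KPT and under 1 for GPR183 with PU. In JEKO1 libraries labelled IB, CXCR4, S1PR4 and GPR183 fell and CCR7 rose. S1PR1 fell with IB in both lines. Of all genes called for IB in both lines, 89% moved in opposite directions. In JEKO1, 2 of the 9 genes rose and 5 fell in libraries labelled IB, with an adjusted p under 0.05 in limma, where 42% of all tested genes were called, 21.9% higher and 20.2% lower. In MAVER, 4 rose and 1 fell with IB, where 19.8% of tested genes were called, 10.1% higher and 9.65% lower. With KPT 6 rose and 1 fell, where 55.9% were called, 27.3% higher and 28.5% lower. With PU 4 rose and 2 fell, where 55.1% were called, 27.6% higher and 27.5% lower. Libraries of the compared groups did not overlap for 8 of the 9 genes in JEKO1, against 50.2% of tested genes, and in MAVER for 6 with IB against 33.8%, for 7 with KPT against 60.4% and for 7 with PU against 61.2%. The median log2 fold change over the 9 genes was -0.28 in JEKO1 with IB, 0.37 in MAVER with IB, 0.45 with KPT and 0.17 with PU, where the median over all tested genes was -0.01, -0.01, 0.00 and 0.01. Fold changes are of log2(normalized count + 1). The 3 MAVER comparisons share their DMSO libraries.

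**Figure D1:**
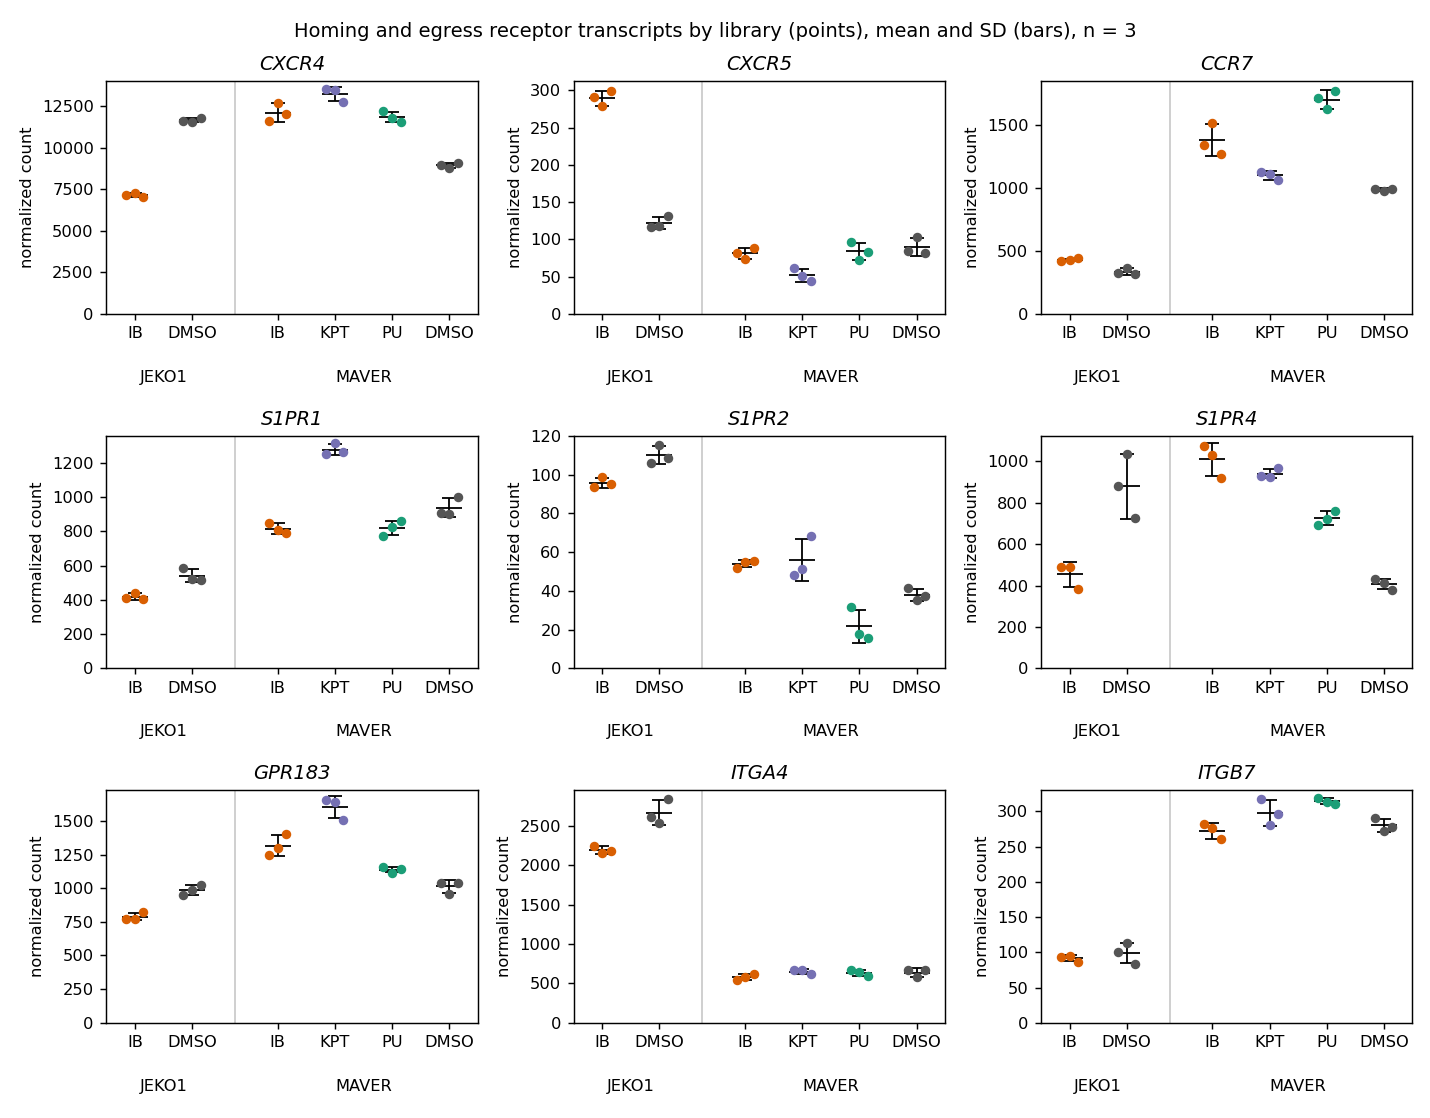
Normalized counts (y axis, from 0) of the 9 genes in each library (points) with the mean and SD of each group of 3 (bars); the JEKO1 and MAVER tables were normalized separately, so heights are to be compared within a line. CXCR4 lies lower with IB in JEKO1 and higher with each drug in MAVER, S1PR1 is highest with KPT, CCR7 is highest with PU, and ITGA4 overlaps between all MAVER groups.

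CXCR4, the receptor that retains B cells in CXCL12-rich niches, was called in all 4 comparisons with DMSO. In JEKO1 it stood at 7153, 7244 and 7014 normalized counts in libraries labelled IB, against 11637, 11538 and 11784 with DMSO. The groups lay far apart with little scatter. The log2 fold change was -0.71 ± 0.04 (SE; limma adjusted p = 3.61e-12). MAVER libraries stood at 11580.3, 12717 and 12029 with IB, at 13534, 13456 and 12749 with KPT, and at 12202, 11777 and 11573 with PU, against 8984, 8788 and 9070.1 with DMSO. Every drug library was above every DMSO library. CXCR4 rose by 0.44 ± 0.04 with IB (adjusted p = 8.46e-12), by 0.57 ± 0.04 with KPT (1.14e-15) and by 0.41 ± 0.04 with PU (1.23e-11; log2 fold change ± SE, limma). In order, KPT stood highest, then IB, then PU, then DMSO. KPT exceeded IB by 0.13 ± 0.04 (adjusted p = 0.00471, but 0.0548 without IB replicate A), and PU and IB were not told apart, with a difference of -0.03 (95% interval -0.11 to 0.05).

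CXCR5, the receptor that brings B cells into follicles, behaved otherwise. In JEKO1 it stood at 291, 279 and 299 normalized counts in libraries labelled IB and at 117, 117 and 132 with DMSO, with no overlap. It rose by 1.24 ± 0.10 on the log2 scale (SE; limma adjusted p = 2.89e-09). Values in MAVER stood at 81.9, 73.7 and 88.1 with IB, at 61, 51.1 and 43.6 with KPT, and at 96.1, 72.5 and 82.8 with PU, against 84.7, 104 and 81.3 with DMSO. Only the KPT libraries were clear of the DMSO libraries. CXCR5 fell by 0.79 with KPT on the log2 scale (SE 0.16, adjusted p = 6.05e-05), a value that rests on 34 to 43 recovered reads per KPT library. With IB the log2 fold change was -0.14 (95% interval -0.46 to 0.18) and with PU -0.10 (-0.43 to 0.22), neither called. KPT was also below IB, by -0.65 ± 0.16 (adjusted p = 0.000732), and PU was above KPT, by 0.69 ± 0.16 (0.000356). In the GENCODE annotation the exons of CXCR5 overlap those of BCL9L, which lies on the opposite strand, and whether counting used strand is unknown here. BCL9L averaged 331 ± 54.1 normalized counts in JEKO1 libraries labelled IB and 153 ± 6.93 with DMSO. In MAVER it averaged 53.2 ± 1.53 with IB, 47.9 ± 10.5 with KPT and 75.6 ± 9.6 with PU, against 113 ± 4.33 with DMSO (SD, n = 3). Its part in the CXCR5 values was not tested.

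CCR7, the receptor for entry into the lymph node and for the T cell zone, was higher in all 4 comparisons with DMSO. In JEKO1 it stood at 418, 425 and 441 normalized counts in libraries labelled IB, against 326, 364 and 317 with DMSO. It rose by 0.35 ± 0.08 on the log2 scale (SE; limma adjusted p = 0.000857) and the groups did not overlap. MAVER values stood at 1343, 1517 and 1272 with IB, at 1128, 1113 and 1059 with KPT, and at 1711, 1623 and 1770.3 with PU, against 990.2, 975 and 993 with DMSO. The PU libraries were the highest, the IB libraries came next, and the KPT libraries stood just above DMSO without overlap. The rise was 0.79 ± 0.05 with PU (adjusted p = 1.11e-15), 0.48 ± 0.05 with IB (4.23e-09) and 0.16 ± 0.05 with KPT (0.0138). The KPT call was lost without KPT replicate A (0.14, adjusted p = 0.0563) and without the variance trend (0.0631). Without KPT replicates A and C together the value was 0.17 (adjusted p = 0.0687), with replicate B as the lone KPT library, assumed to vary like the other groups. That value was no smaller than with all 3 KPT libraries. Each neighbouring pair of drugs differed, with PU above IB by 0.31 ± 0.05 (adjusted p = 7.77e-06) and KPT below IB by -0.32 ± 0.05 (4.07e-06).

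**Figure D2:**
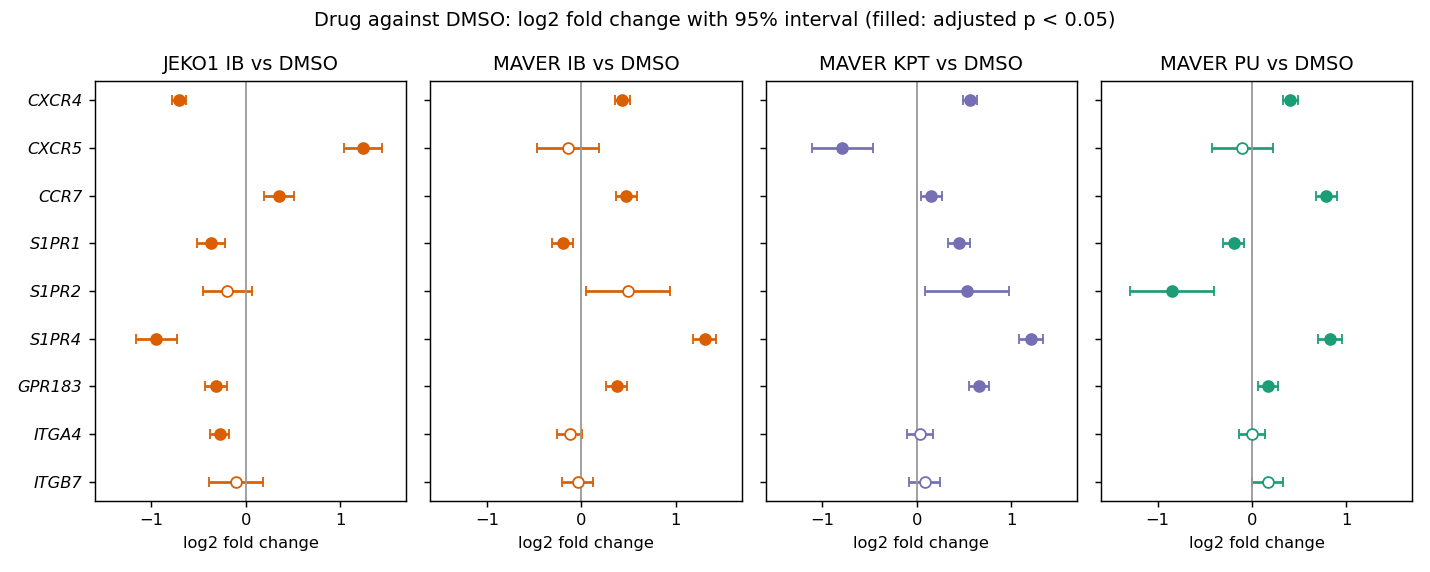
Log2 fold change against DMSO (x axis) of each gene (rows) in the 4 comparisons, with 95% intervals from limma; filled points have an adjusted p under 0.05. S1PR4 and CXCR4 lie left of 0 in JEKO1 with IB and right of 0 in MAVER with each drug, S1PR1 lies right of 0 with KPT alone, and S1PR2 lies left with PU.

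Among the sphingosine-1-phosphate receptors, S1PR4, which is expressed largely by blood and lymphoid cells, moved in every comparison with DMSO. In JEKO1 it stood at 491, 488 and 382 normalized counts in libraries labelled IB, against 879, 1038 and 725 with DMSO. The groups did not overlap, although the DMSO libraries were spread and the lowest of them was replicate C, rich in RNA45S5. S1PR4 fell by 0.95 on the log2 scale (SE 0.10, limma adjusted p = 3.45e-07). In MAVER it stood at 1076, 1032 and 921 with IB, at 929, 927 and 968 with KPT, and at 693, 720.2 and 761 with PU, against 430.2, 413 and 379 with DMSO. All drug libraries were well above DMSO. The rise was 1.31 ± 0.06 with IB (adjusted p = 9.57e-20), where 0.559% of tested genes had a larger fold change in either direction, 1.21 ± 0.06 with KPT (2.09e-19) and 0.83 ± 0.06 with PU (1.32e-14). KPT and IB overlapped, with a difference of -0.10 (95% interval -0.23 to 0.03), which was called, among the alternatives run, only without IB replicate C (-0.16, adjusted p = 0.0364). PU was below KPT by -0.38 ± 0.06 (adjusted p = 2.55e-06) and below IB by -0.48 ± 0.06 (2.69e-08).

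S1PR1, the egress receptor, separated KPT from the other drugs. In MAVER it stood at 852, 809 and 789 normalized counts with IB, at 1252, 1315 and 1267 with KPT, and at 773, 827 and 859 with PU, against 910.05, 901 and 1001 with DMSO. The KPT libraries lay above all others, and the IB and PU libraries lay below DMSO by a small margin. S1PR1 rose by 0.45 ± 0.06 with KPT (limma adjusted p = 8.39e-09) and changed by -0.20 ± 0.06 with IB (0.00847) and by -0.19 ± 0.06 with PU (0.00343; log2 fold change ± SE). The IB call was lost without DMSO replicate C (adjusted p = 0.1). KPT exceeded IB by 0.65 ± 0.06 (adjusted p = 9.33e-13), and PU was below KPT by -0.64 ± 0.06 (8.73e-13). PU and IB differed by 0.01 (95% interval -0.11 to 0.12). In JEKO1, S1PR1 stood at 411, 441 and 405 in libraries labelled IB, against 589, 519.7 and 518 with DMSO, lower without overlap (-0.37 ± 0.07, adjusted p = 0.000311).

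S1PR2, the receptor that holds germinal centre B cells in place, had few reads, 17 to 55 per MAVER library. It stood at 52, 54.8 and 55.2 normalized counts with IB, at 48.4, 51.1 and 68.5 with KPT, and at 31.6, 17.6 and 15.8 with PU, against 41.4, 35.2 and 37.5 with DMSO. PU lay below DMSO and the other drugs above it, with no overlap in each case. S1PR2 fell by 0.85 with PU on the log2 scale (SE 0.22, limma adjusted p = 0.00127) and stood lower with PU than with KPT (-1.38 ± 0.22, adjusted p = 1.33e-06) or IB (-1.34 ± 0.22, 2.17e-06). The rise with KPT was 0.53 ± 0.22 (adjusted p = 0.0393). The KPT result no longer passed without DMSO replicate B (0.107), DMSO replicate C (0.0826) or KPT replicate C (0.199), without the variance trend (0.0623) and with no filter on low values (0.105). With KPT replicate B as the lone KPT library, assumed to vary like the other groups, it was 0.42 (adjusted p = 0.288). The value with IB, 0.50 (95% interval 0.05 to 0.94, adjusted p = 0.117), was not called. In JEKO1 S1PR2 stood at 93.7, 98.6 and 95.2 in libraries labelled IB, against 106, 115 and 109 with DMSO, lower without overlap but not called (-0.20, 95% interval -0.45 to 0.06, adjusted p = 0.216, but 0.0355 without the variance trend). A gene of the same strand, DNMT1, overlaps the annotated span of S1PR2 without sharing exons. DNMT1 averaged 7289 normalized counts over the JEKO1 libraries and 3020 over the MAVER libraries, and its part in the S1PR2 values was not tested.

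GPR183 had the direction of CXCR4 in each comparison with DMSO. In JEKO1 it stood at 773, 774 and 821 normalized counts in libraries labelled IB, against 948, 987 and 1022 with DMSO (-0.32 ± 0.06, limma adjusted p = 9.94e-05). MAVER levels stood at 1247, 1296 and 1401 with IB, at 1655, 1642 and 1506 with KPT, and at 1154, 1115 and 1143 with PU, against 1039, 959 and 1042 with DMSO. No drug group overlapped DMSO, and KPT was the highest. The rise was 0.66 ± 0.05 with KPT (adjusted p = 1.01e-13), 0.37 ± 0.05 with IB (4.98e-07) and 0.17 ± 0.05 with PU (0.00714). The PU result did not pass when DMSO replicate B was left out (adjusted p = 0.0646). The order KPT, IB, PU, DMSO held between neighbours, with KPT above IB by 0.28 ± 0.05 (adjusted p = 1.8e-05) and PU below IB by -0.21 ± 0.05 (0.00106). GPR183 lies within the annotated span of UBAC2 on the opposite strand, without shared exons.

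Of the integrin chains, ITGA4 was called against DMSO in JEKO1 and ITGB7, with the variance trend, in neither line. ITGA4, the α4 chain of VLA-4, stood at 2246, 2155 and 2174 normalized counts in JEKO1 libraries labelled IB, against 2615, 2534 and 2838 with DMSO, lower without overlap (-0.28 ± 0.05, limma adjusted p = 7.79e-05). Levels in MAVER stood at 546, 586 and 618 with IB, at 667, 665 and 618 with KPT, and at 666, 649.9 and 593 with PU, against 665, 574 and 669.9 with DMSO. These groups overlapped, and the 95% intervals of the log2 fold change against DMSO were -0.26 to 0.01 with IB, -0.10 to 0.17 with KPT and -0.13 to 0.14 with PU. KPT against IB gave 0.16 ± 0.07 (adjusted p = 0.0451), a call lost under 11 alternatives, among them edgeR (0.0632) and DESeq2 (0.0922). Without KPT replicate A, rich in RNA45S5, the value was 0.14 (limma adjusted p = 0.125), and without KPT replicate B it was 0.14 (0.119). With KPT replicate B as the lone KPT library the value was 0.19.

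ITGB7 is the chain that with ITGA4 forms the gut homing integrin. In JEKO1 it stood at 92.9, 95.2 and 86.8 normalized counts in libraries labelled IB, within the 101, 113 and 84 of DMSO (log2 fold change -0.10, 95% interval -0.40 to 0.19). In MAVER it stood at 282, 276 and 260.2 with IB, at 317, 280.3 and 297 with KPT, and at 319, 314 and 311 with PU, against 290.1, 272 and 278 with DMSO. The PU libraries lay just above the DMSO libraries, by 0.17 (95% interval 0.00 to 0.33, adjusted p = 0.08, but 0.0254 without the variance trend). PU exceeded IB by 0.21 ± 0.08 (adjusted p = 0.03), a call lost without IB replicate C (0.103), PU replicate A (0.0776) or PU replicate B (0.0653), with equal totals (0.0954) and with DESeq2 (0.0607). The exons of ITGB7 overlap those of ZNF740 on the opposite strand. ZNF740 averaged 1126 ± 45.6 normalized counts with IB, 1635 ± 58.8 with KPT and 1261 ± 37.2 with PU, against 1079 ± 62.1 with DMSO in MAVER (SD, n = 3), and its part in the ITGB7 values was not tested.

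Set against each other directly, KPT and IB differed in MAVER for 6 of the 9 genes, with 4 higher and 2 lower with KPT, where 55.2% of tested genes were called, 27% higher and 28.2% lower. PU against KPT was called for 7, with CXCR5 and CCR7 higher and CXCR4, S1PR1, S1PR2, S1PR4 and GPR183 lower with PU, where 57% of tested genes were called, 28.3% higher and 28.6% lower. PU against IB was called for 5, with CCR7 and ITGB7 higher and S1PR2, S1PR4 and GPR183 lower with PU, where 55.1% of tested genes were called, 27.5% higher and 27.6% lower. The libraries did not overlap for 5 genes in KPT against IB, where 58.4% of tested genes did not, for 7 in PU against KPT, where 60.6% did not, and for 5 in PU against IB, where 59.8% did not. These comparisons share libraries.

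The IB effect was then compared between the lines, as the JEKO1 log2 fold change minus the MAVER one. It differed for 5 of the 9 genes, 1 higher and 4 lower in JEKO1 than in MAVER, where 38.6% of tested genes were called, 20.4% higher and 18.2% lower. S1PR4 differed by -2.26 ± 0.16 (SE; limma adjusted p = 2.2e-09), CXCR4 by -1.14 ± 0.05 (4.41e-12) and GPR183 by -0.69 ± 0.08 (8.22e-07), each lower with IB in JEKO1 and higher in MAVER. S1PR2 differed by -0.69 ± 0.18 (adjusted p = 0.00585), although neither line alone was called with the variance trend. That SE comes from a separate fit of both lines, and is smaller than the 0.22 of S1PR2 with IB in the MAVER fit. The S1PR2 call therefore depends on how the spread was estimated. CXCR5 differed by 1.38 ± 0.17 (adjusted p = 2.95e-06). For CCR7, S1PR1, ITGA4 and ITGB7 the difference was not called, with 95% intervals of -0.32 to 0.07, -0.36 to 0.02, -0.34 to 0.03 and -0.38 to 0.25. With the JEKO1 labels exchanged, CXCR4 and CXCR5 would still differ, by 0.27 (adjusted p = 0.000986) and -1.10 (0.00015), S1PR4, GPR183 and S1PR2 would not be called (-0.36, -0.05 and -0.30), and CCR7, S1PR1 and ITGA4 would become different (-0.83, 0.57 and 0.40).

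**Figure D3:**
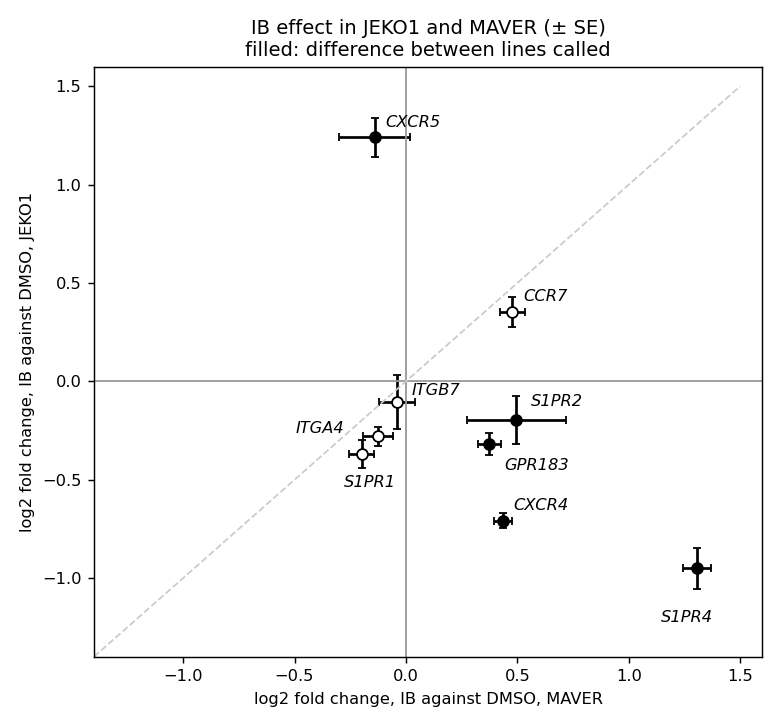
Log2 fold change of IB against DMSO in JEKO1 (y axis) and MAVER (x axis), with SE bars and a dashed line of equal effects; filled points differ between the lines in limma (adjusted p under 0.05). S1PR4, CXCR4, GPR183 and S1PR2 lie below the dashed line in the lower right, CXCR5 lies at the top, and CCR7, S1PR1, ITGA4 and ITGB7 lie near the line.

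Levels of the lines can be set side by side only as RPM, recovered reads scaled to equal library totals, since the tables were normalized separately, and no test was made. In DMSO libraries ITGA4 held 264 ± 15.3 RPM in JEKO1 and 67.4 ± 5.59 in MAVER (SD, n = 3). CCR7 went the other way, with 33.3 ± 2.53 in JEKO1 and 104 ± 0.839 in MAVER, as did ITGB7 with 9.83 ± 1.45 and 29.7 ± 0.905 and S1PR1 with 53.7 ± 4.05 and 99.3 ± 5.84 in the same order of lines. S1PR4 held 87.3 ± 15.6 in JEKO1 and 43.1 ± 2.74 in MAVER, and S1PR2 10.9 ± 0.464 and 4.03 ± 0.325. CXCR4 (1155 ± 11 and 947 ± 14.1), CXCR5 (12.1 ± 0.805 and 9.53 ± 1.3) and GPR183 (97.6 ± 3.57 and 107 ± 4.8) were closer between JEKO1 and MAVER. The JEKO1 levels hold for the labels as given. In JEKO1 libraries labelled IB the mean RPM was 45.1 for S1PR4, 28.8 for CXCR5, 710 for CXCR4 and 78.5 for GPR183. For ITGA4, S1PR2, CCR7, S1PR1 and ITGB7 it was 218, 9.53, 42.5, 41.7 and 9.11 in those libraries.

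Other genes of the same system were examined in 6 lists, described by counts beside the shares of called genes given above. Among other chemokine and lipid receptors of lymphocytes, 10 of 25 passed the filter in JEKO1, and in libraries labelled IB 5 rose and 2 fell. The prostaglandin receptor PTGER4 averaged 439 ± 11.6 normalized counts there and 206 ± 6.96 with DMSO, and the lysolipid-responsive receptor GPR132 170 ± 18.2 and 58.3 ± 3.82 in the same order (SD, n = 3). In MAVER 5 passed. Of these, 2 fell with IB, 2 rose and 2 fell with KPT, and 3 rose and 1 fell with PU. PTGER4 averaged 442 ± 9.45 with IB, 357 ± 13 with KPT and 279 ± 17.2 with PU, against 533 ± 21.1 with DMSO. GPR132 averaged 392 ± 7.82 with IB, 399.6 ± 21.5 with KPT and 558 ± 45.9 with PU, against 573 ± 31.1 with DMSO.

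Among integrins and adhesion molecules, 2 of 14 rose and 7 fell in JEKO1 with IB, where ITGB1, the common partner of ITGA4, averaged 1363 ± 101 in libraries labelled IB and 2092 ± 70.5 with DMSO. The laminin receptor chain ITGA6 averaged 240 ± 10.1 and 536 ± 25.5 in the same order, and ICAM1 rose by 2.76 ± 0.10 on the log2 scale (SE). In MAVER 4 of 16 rose and 4 fell with IB, 8 rose and 4 fell with KPT, and 8 rose and 3 fell with PU. ITGB1 averaged 1925 ± 42.5 with IB, 1946 ± 54.6 with KPT and 2151 ± 91.3 with PU, against 1647 ± 112 with DMSO, higher with each drug. The tetraspanin CD9 averaged 376 ± 19.4 with IB, 264 ± 24.7 with KPT and 224 ± 31.8 with PU, against 173 ± 19.1 with DMSO. ICAM1 averaged 249 ± 13.7 with IB, 194 ± 33.8 with KPT and 153 ± 13.7 with PU, against 214 ± 15.2 with DMSO, and was called with PU alone. PECAM1, an adhesion molecule of leukocytes and endothelium, averaged 361 ± 16.5 with IB, 355 ± 30.04 with KPT and 568 ± 16.7 with PU, against 328 ± 19.9 with DMSO. In JEKO1 PECAM1 averaged 119 ± 7.36 in libraries labelled IB and 253 ± 19.2 with DMSO, and CD9 17.6 ± 1.9 and 37.7 ± 7.59 in the same order.

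Among signal relay genes behind the receptors, 14 of 32 rose and 6 fell in JEKO1 with IB, and in MAVER 5 of 31 rose and 9 fell with IB, 8 rose and 6 fell with KPT, and 11 rose and 11 fell with PU. RAC2, a GTPase that drives actin assembly in leukocytes, averaged 604 ± 12.2 normalized counts in JEKO1 libraries labelled IB and 211 ± 15 with DMSO, and in MAVER 1985 ± 89.7 with IB, 2184 ± 133 with KPT and 3386 ± 157 with PU, against 2991 ± 40.6 with DMSO. In MAVER it fell with IB and KPT and rose with PU, by 0.18 ± 0.05 on the log2 scale (SE; limma adjusted p = 0.00138). RHOH, a GTPase-deficient relative that restrains RAC, averaged 565 ± 36.3 in JEKO1 libraries labelled IB and 854 ± 76.7 with DMSO, and in MAVER 1378 ± 54.3 with IB, 1192 ± 19.4 with KPT and 1084 ± 38.3 with PU, against 800.1 ± 23.3 with DMSO. FERMT3, kindlin-3, which activates integrins from inside the cell, averaged 1017 ± 60.7 with IB, 1159 ± 69.9 with KPT and 675 ± 65 with PU, against 1168 ± 36.3 with DMSO in MAVER. In JEKO1 FERMT3 averaged 881 ± 69.8 in libraries labelled IB and 617 ± 41.4 with DMSO.

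Genes that desensitise receptors or shorten G protein signals form a further list, and their effect on the receptors named here was not tested. Of 12 tested in JEKO1 9 rose and 2 fell with IB, and of 13 in MAVER 2 rose and 4 fell with IB, 4 rose and 5 fell with KPT, and 4 rose and 3 fell with PU. RGS2, which shortens G protein signals, averaged 256 ± 24.2 in JEKO1 libraries labelled IB and 108 ± 8.51 with DMSO, and in MAVER 115 ± 17.1 with IB, 288 ± 8.45 with KPT and 1290 ± 108 with PU, against 237 ± 25.7 with DMSO. RGS1, a brake on CXCR4 signals in B cells, averaged 97.2 ± 14.5 with IB, 240 ± 41 with KPT and 181 ± 8.81 with PU, against 77.2 ± 9.6 with DMSO in MAVER. In JEKO1 RGS1 was low, at 23.8 ± 6.01 in libraries labelled IB and 8.72 ± 0.195 with DMSO. ADRBK1, the receptor kinase GRK2 under its older symbol, averaged 4851 ± 333 with IB, 4306 ± 46.3 with KPT and 4214 ± 178 with PU, against 3574 ± 96.7 with DMSO in MAVER, and 5191 ± 178 in JEKO1 libraries labelled IB and 6351 ± 357 with DMSO.

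Few genes of the ligands and their metabolism passed the filter on low values, 5 of 19 in JEKO1, where 1 rose and 1 fell, and 3 in MAVER. All 3 rose with PU. With KPT the phosphatase SGPP1 rose and the kinase SPHK2 fell. With IB the log2 fold changes of SGPP1, SGPL1 and SPHK2 were -0.08, -0.03 and -0.04, with adjusted p from 0.403 to 0.862. SGPL1, the lyase that degrades sphingosine-1-phosphate, averaged 670.5 ± 52.3 with IB, 716 ± 40.3 with KPT and 952 ± 47.1 with PU, against 683 ± 13.3 with DMSO. Among transcription factors known to act on such genes, 8 of 20 rose and 6 fell in JEKO1 with IB, and in MAVER 7 of 19 rose and 2 fell with IB, 8 rose and 4 fell with KPT, and 6 rose and 6 fell with PU. BACH2, a repressor that keeps B cells from plasma cell fate, averaged 2106 ± 29.2 in JEKO1 libraries labelled IB and 3970 ± 75.1 with DMSO. In MAVER it averaged 2105 ± 39.8 with IB, 2129 ± 22.2 with KPT and 1718 ± 53 with PU, against 1206 ± 49.9 with DMSO.

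**Figure D4:**
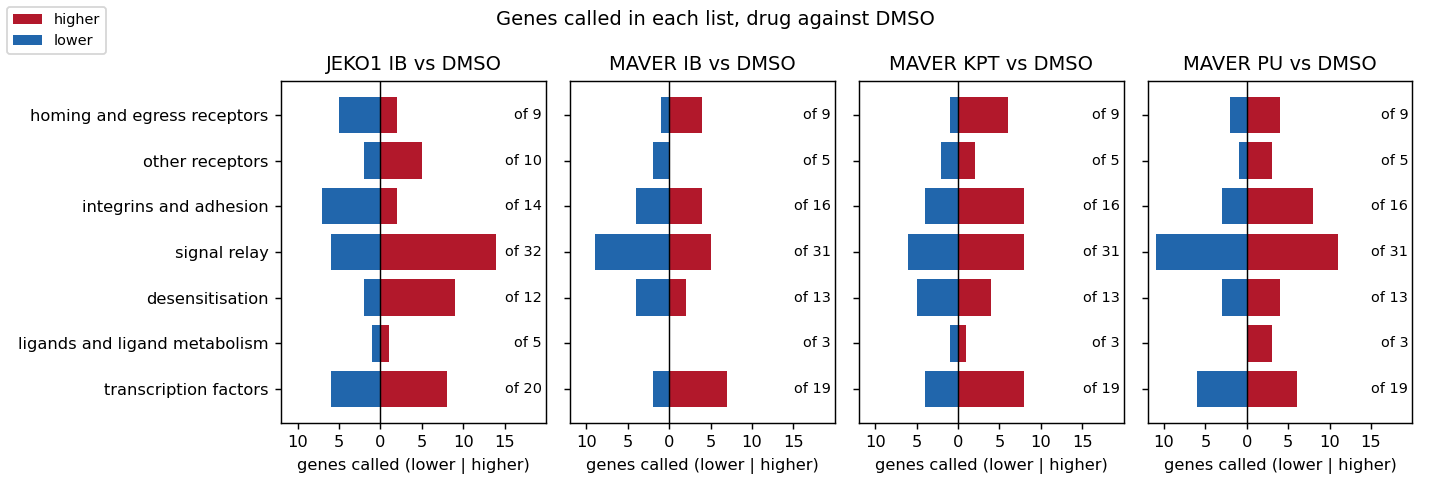
Number of genes called higher (red, right) and lower (blue, left) than DMSO in each list (rows), with the number tested at the right, for the 4 comparisons. The homing and egress receptors have 5 lower and 2 higher in JEKO1 with IB, and in MAVER 1 lower and 4 higher with IB, 1 and 6 with KPT and 2 and 4 with PU.

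The genes with the most similar pattern were those with the highest Pearson r over the 18 libraries, of log2 values minus the DMSO mean of the line, among genes with a mean of at least 50 in each line. The libraries of a group share their treatment, and both DMSO groups are centred by this subtraction. These values therefore describe the pattern of the drug groups only, with the JEKO1 labels as given. Genes were picked for the highest r, so a high value is no finding in itself. CXCR4 was closest to LDLRAD4 (r = 0.99), KIAA0226L (0.99) and GADD45A (0.99), and CXCR5 to SLC1A4 (0.98), KLHL5 (0.97) and BCL3 (0.96). CCR7 was closest to DNMT3B (0.93), GAS7 (0.91) and EBF1 (0.90). S1PR1 was closest to ALDH3B1 (0.93), CRIP1 (0.93) and DERL3 (0.92), S1PR2 to GINS3 (0.93), TEX10 (0.92) and PTBP2 (0.91), and S1PR4 to RHOH (0.99), RASAL1 (0.99) and BACH2 (0.98). GPR183 was closest to PRDM2 (0.98), GCSAM (0.97) and EIF2AK1 (0.97). For the integrin chains the highest values were lower, 0.90 for ITGA4 with TMX3 and 0.86 for ITGB7 with EDEM2.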

How the data were processed

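From the labels' protocols, STAR alignment to the transcriptome, Cufflinks and DESeq2 followed stranded library preparation, and the submitters' processing notes name hg19. Neither the tool that counted reads nor its strand setting is known here. The authors deposited normalized counts, a signal per gene: reads divided by 1 factor per library, in 1 table per line. All values (100%) were whole multiples of the smallest within 0.01 read, so reads were recovered.

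Tests used limma 3.58.1 (R 4.3.3; eBayes with trend) on log2(normalized count + 1). Genes needed a mean of 10 or more in the fit, which was made once per line, and p-values were adjusted by Benjamini-Hochberg over all of them. The difference between lines was fitted on 12 libraries. The tests were run on simulated counts with the same spread for every gene and few changed genes. That checks the recovery of known fold changes and does not check the p-values of these data. Alternatives included edgeR 4.0.16 and DESeq2 1.42.0 on recovered reads. Replicates differed by more than sampling noise (chi-square per degree of freedom 1.39 to 4.92). Intervals of fold changes are 95% limma intervals. Overlapping genes were taken from GENCODE 29. Genes named are the 9 members, some of the 4 genes with the smallest p in each list and comparison, and the 3 most alike per member; EGR1, RNA45S5, BCL9L, ZNF740 and the marker genes were named after their values were seen. The members and lists were chosen with earlier results of these data known. Names altered to dates (28 per table) are not used. Some genes of the further lists are not reported here.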

Additional observations from a re-analysis of the deposited data

Results flagged for a closer look

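The effect of IB against DMSO differed between JEKO1 and MAVER for 5 of the 9 genes, by a limma test of the difference itself (JEKO1 log2 fold change minus MAVER log2 fold change, n = 3 libraries in each of 4 groups). The differences were -1.14 for CXCR4, 1.38 for CXCR5, -0.69 for S1PR2, -2.26 for S1PR4 and -0.69 for GPR183. All 5 hold for the JEKO1 labels as given. The S1PR2 difference rests on 37 to 48 reads per MAVER DMSO library and 49 to 54 with IB. It also depends on the spread estimated in the fit of both lines. Groups of 3 libraries are too small for a test of single outlying libraries.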

How the results depend on the processing

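Over 8 comparisons, 72 values of the 9 genes were computed, of which 48 were called. With the JEKO1 labels as given, 41 of the 48 kept their direction and call under all alternatives that gave a value, 7 lost the call under at least 1, and 0 reversed. The number of genes called stayed within 1.5 times the reported count in each comparison, for example 5 to 7 with KPT against 7 reported and 4 to 7 for KPT against IB against 6 reported. S1PR2 gave no MAVER value at a mean of at least 50.

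Values that changed sign were not called, except with exchanged labels. ITGA4 with PU was -0.0401 with equal totals and -0.00319 with DESeq2. With equal totals, PU against IB was -0.00865 for CXCR5 and -0.0427 for S1PR1. Without both KPT libraries rich in RNA45S5, a choice made after seeing the data, S1PR2 in KPT against IB was -0.0782. Leaving out 1 library at a time gave -0.0388 to 0.0719 for ITGA4 with KPT, -0.0704 to 0.0518 for ITGA4 with PU, -0.204 to 0.00462 for CXCR5 with PU, -0.116 to 0.13 for S1PR2 in KPT against IB, and -0.0676 to 0.0186 for ITGA4 in PU against KPT. In PU against IB it gave -0.0621 to 0.0055 for CXCR4, -0.0634 to 0.137 for CXCR5 and -0.0293 to 0.0463 for S1PR1, and -0.18 to 0.0319 for ITGB7 between lines. With the JEKO1 labels exchanged, the difference between lines was 0.27 for CXCR4, -1.10 for CXCR5, 0.57 for S1PR1, 0.40 for ITGA4 and 0.14 for ITGB7. Causes were not tested.

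Deviations from group means correlated at -0.092 to 0.118 between same-lettered libraries, over 0.1 in 2 of 21 pairs. Between libraries of different letters the range was -0.13 to 0.142, over 0.1 in 2 of 42 pairs. Groups of 3 libraries are too small to tell from this whether same-lettered libraries shared a culture or batch. With the letter as a replicate block, ITGA4 in KPT against IB was not called (0.16, adjusted p = 0.0543), and no other call changed. Rescaling to equal totals gave 43.7% higher among called genes with PU, against 50.1% as deposited. Depth limits S1PR2 and CXCR5, with 17 to 55 and 34 to 128 reads per MAVER library.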

Other observations

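KLF2 and CD69, both tied to S1PR1, were chosen after their values had been seen. KLF2, a factor known to sustain S1PR1 in lymphocytes, averaged 209 ± 19.4 normalized counts in JEKO1 libraries labelled IB and 159 ± 5.95 with DMSO, and in MAVER 354 ± 38.8 with IB, 505 ± 18.1 with KPT and 368 ± 22.3 with PU, against 312 ± 18.6 with DMSO (SD, n = 3). It rose with KPT (log2 fold change 0.69 ± 0.08 SE, limma adjusted p = 9.98e-10), with PU (0.24 ± 0.08, 0.0107) and in JEKO1 (0.38 ± 0.10, 0.00465), and with IB in MAVER the value was 0.18 ± 0.08 (0.12). CD69, whose protein takes S1PR1 off the cell surface, averaged 115 ± 11.4 in JEKO1 libraries labelled IB and 31.2 ± 2.51 with DMSO, and in MAVER 131 ± 26.3 with IB, 177 ± 15.4 with KPT and 83.8 ± 16.1 with PU, against 106 ± 15.8 with DMSO. It rose with KPT (0.74 ± 0.14, adjusted p = 3.12e-05) and was lower with PU (-0.34 ± 0.14, 0.0429).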
